A study of Homo sapiens with 4 samples.

Results

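The kinases that drive the cell division cycle and the proteins that hold them back were followed by their mRNA in 22Rv1 cells exposed to JMC45, which the series presents as a degrader of the transcription kinase CDK9. The group consists of 10 genes chosen by symbol, by a rule that uses no measured values although earlier results of these data were known: the kinases CDK1, CDK2, CDK4 and CDK6, the CIP/KIP inhibitors CDKN1B and CDKN1C, the INK4 inhibitors CDKN2A, CDKN2C and CDKN2D, and the phosphatase gene CDKN3. All 10 were among the 63241 genes with values in the deposited table, and all 10 reached the mean TPM of 1 required for testing, as did 14018 genes in total. 22Rv1 is an established human cell line of castration-resistant prostate cancer, and no genetic change was made to it for the comparison. There were 2 libraries from cells given 40 nM JMC45 for 12 h and 2 from cells given the DMSO vehicle for 12 h. The name D45 in the series title was read as this compound. A single line at 1 dose and 1 time was studied, and the labels do not say that the libraries of a group came from separate cultures, so p-values reflect no more than library-to-library spread, possibly technical.

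A cyclin-dependent kinase is inactive until a cyclin binds it. D-type cyclins partner CDK4 and CDK6 early in G1, cyclins E and A partner CDK2 around the start of DNA synthesis, and cyclins A and B partner CDK1 up to mitosis. INK4 proteins bind CDK4 and CDK6 and keep D cyclins away, whereas CIP/KIP proteins bind assembled cyclin-kinase complexes. Many of these genes are themselves transcribed in step with the cycle, through E2F sites and through the paired CCAAT box and CHR (cell cycle genes homology region) elements of late cell cycle promoters. CDK9, by contrast, serves transcription itself: as the kinase of P-TEFb it releases paused RNA polymerase II, so the comparison asked what happens to transcripts, here those of its cell cycle relatives, when it is targeted.

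Promoter sequence was looked up to describe the letters near the starts of these genes. A link between these letters and the changes was not tested. Windows of 300 bases, from 250 before to 50 after a transcription start, were taken from RefSeq (GRCh38.p14) and matched 8 of the 10 genes with 13 windows; CDK2 and CDKN1C had no entry. They were searched on both strands for CCAAT (the CCAAT box), TTTGAA (the CHR core), CACGTG (the E-box bound by MYC and MAX) and the E2F letters TTTGGCGC and TTTCCCGC, and no match of one motif overlapped a match of another. A window around 1 of the 2 CDK1 starts held 3 CHR cores and 2 CCAAT boxes, and the CDKN3 window held 1 CHR core and 2 CCAAT boxes. The CDK4 window held 3 E-boxes and neither of those elements. In the CDKN1B window there were 3 CCAAT boxes and no CHR core. Of all 35116 windows in the table, 34.6% held a CCAAT box, 15.2% a CHR core, 7.26% an E-box and 2.27% the E2F letters. Windows with 3 or more matches made up 3.26% for CCAAT boxes, 0.293% for CHR cores and 0.094% for E-boxes. These E2F letters were found in none of the 13 windows, and no other form of an E2F site was searched. A match describes letters in the window and is not evidence of binding.

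The sites shown are the CDK1 and CDKN3 elements, since both genes encode mitotic regulators, the 3 E-boxes of CDK4, the most abundant kinase transcript, and sites of the inhibitors with the largest changes, CDKN1B and CDKN2C. Capitals mark, on the strand of the gene, the motif that a line is named for, and in the CDKN3 stretch each motif found. ATTGG is a CCAAT box and TTCAAA a CHR core read from the other strand. The attgg in small letters in the first CDK1 line is another CCAAT box of that window.
CDK1 upstream CHR core, chr10:60778397-60778426, plus strand: ctgattggctgcTTTGAAagtctacgggct
CDK1 CCAAT box, chr10:60778420-60778449, plus strand: acgggctacccgATTGGtgaatccggggcc
CDK1 CHR core at the start, chr10:60778453-60778482, plus strand: tagcgcggtgagTTTGAAactgctcgcact
CDKN3 upstream stretch, chr14:54396757-54396848, plus strand: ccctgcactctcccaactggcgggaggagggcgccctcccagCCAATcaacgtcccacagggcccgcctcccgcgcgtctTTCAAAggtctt
CDK4 distal E-box, chr12:57752509-57752538, minus strand: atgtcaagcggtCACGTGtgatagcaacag
CDK4 middle E-box, chr12:57752489-57752518, minus strand: atagcaacagatCACGTGgctgccatcgcc
CDK4 proximal E-box, chr12:57752394-57752423, minus strand: atgggtggcggtCACGTGcccagaacgtcc
CDKN1B CCAAT box, chr12:12717306-12717335, plus strand: ccgccgccgcaaCCAATggatctcctcctc
CDKN2C E-box, chr1:50970164-50970193, plus strand: ttgctgaataatCACGTGtgaatcgagggg
In each CDK1 window at least 1 CHR core and 1 CCAAT box lay before the start, and the window with 3 CHR cores held 1 of them after it, and in CDKN3 both lay in the 92 bases printed. The CDKN2A windows held none of the motifs searched.

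The values are TPM, transcript abundance scaled to a fixed library total, a share of each library adjusted for transcript length, so TPM can be compared between genes, and a change in TPM is a change in a transcript's share. The depth of the libraries is unknown, and no amount of mRNA per cell can be read from the values. The median gene tested had a log2 change of -1.10 between JMC45 and vehicle, and limma called 80.7% of the tested genes lower and 4.25% higher (adjusted p below the threshold of 0.05). Mitochondrially encoded transcripts took 20.1% to 20.4% of TPM in vehicle and 26.6% to 29.3% in JMC45; their part in the changes below was not tested. A second set of values, rescaled by median-of-ratios so that the typical gene shows no change, had a median of -0.02 and called 35.5% of genes lower and 34.9% higher. Directions below are given on TPM and on these rescaled values. Of cell type markers, all 7 luminal prostate markers reported, HOXB13, KRT8 and EPCAM among them, were present, with a summed TPM of 974.8 to 980.8 in vehicle and 580.5 to 597.1 in JMC45. They did not move together: HOXB13, KRT18 and FOXA1 fell to 10.8%, 20.5% and 23.9% of their vehicle means, KRT8 and EPCAM fell to 80.2% and 79.1%, and KLK3 (127.3%) and FOLH1 (104.9%) did not pass; their part in the changes below was not tested. The 5 leukocyte markers summed to at most 1.76 TPM in a library, the 3 endothelial markers to at most 0.01 TPM and the 5 fibroblast markers to at most 3.79 TPM, with CD3E and CDH5 at 0 throughout. The compound is described as acting on CDK9 protein, which was not measured, so the mRNA does not check the labels.

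After JMC45, 9 of the 10 cell cycle genes took a smaller share of the library and the INK4 gene CDKN2A did not pass the test. Both JMC45 libraries lay below both vehicle libraries for those 9 genes, as for 85.7% of all tested genes, and for none did both lie above, as for 6.28% of all. No gene of the 10 was called higher by limma on TPM, and 0 passed as higher at an unadjusted p under 0.05. The count of 9 called lower stands against the 80.7% of all tested genes that fell, and the median change of the 10 genes, -1.07, lay near the -1.10 of all genes. Around that median they spread widely: CDKN2C fell to 13.5% of its vehicle mean and CDKN1B to 18.1%, while CDK2 and CDK4 kept 53.7% and 54.5% and CDKN2D kept 75.5%. On the rescaled values 3 of the 10 were called lower (CDKN1B, CDKN2C and CDKN3) and 5 higher (CDK2, CDK4, CDK6, CDKN2A and CDKN2D), with CDK1 and CDKN1C not passing. Of all tested genes, 35.5% were lower and 34.9% higher on those values. Quantile normalization called 6 lower and 3 higher, against 32.8% and 33.6% of all genes; there CDK1, CDK2 and CDK4 were also lower. Fewer cells in the phase that expresses a gene and less of its RNA per cell cannot be told apart in these bulk samples.

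**Figure D1:**
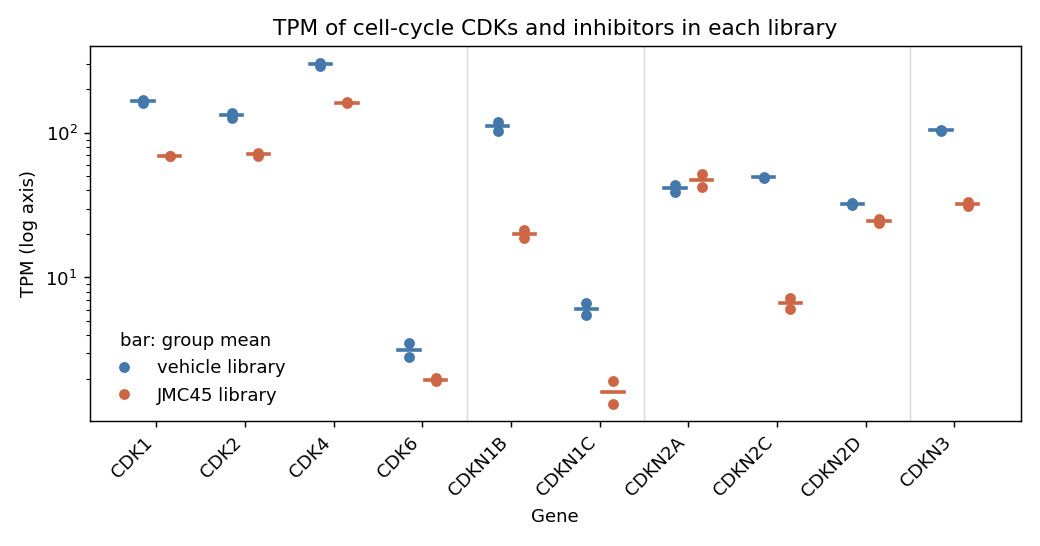
TPM on a log axis for each of the 10 genes, with 1 point per library (blue, vehicle; orange, JMC45) and a bar at the mean of 2 libraries. The groups are apart for every gene except CDKN2A, where vehicle library 1 (43.5) lies above JMC45 library 2 (42.1).

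CDK4, the G1 kinase partnered by D cyclins, was the most abundant of the 10 transcripts in both groups. It measured 290.0 and 304.4 TPM in the vehicle libraries and 164.4 and 159.7 TPM in the JMC45 libraries. The JMC45 libraries were both low and the replicates lay close together. The change was -0.87 on the log2(TPM + 1) scale (SE 0.06, limma adjusted p = 3.75e-05), and 0.48 on the rescaled values, where it passed as higher (adjusted p = 0.00813). In GENCODE 29 the CDK4 locus overlaps TSPAN31 and MARCH9 on the opposite strand, which measured 25.7 to 31.1 and 16.2 to 17.9 TPM in vehicle. The sources used here do not give whether quantification used strand, so reads of these overlapping genes may not be told apart.

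CDK6, its close relative with the same cyclin partners, was expressed at a far lower level in this line. Its values were 3.51 and 2.82 TPM in vehicle and 1.91 and 2.03 TPM in JMC45. The groups did not overlap, although the vehicle libraries differed from each other by almost as much as the lower of them differed from the JMC45 libraries. The change of -0.48 passed only narrowly (SE 0.15, limma adjusted p = 0.0243). The call was lost without vehicle replicate 1 (adjusted p = 0.0763), without JMC45 replicate 1 (0.113), without JMC45 replicate 2 (0.0854), without the filter on low values (0.0645) and without the mitochondrially encoded genes (0.0604), and the direction turned on the rescaled values (0.48) and after quantile normalization (0.71). CDK4 exceeded CDK6 by 95.3 ± 17.9-fold in vehicle and 82.4 ± 5.24-fold in JMC45 (SD, n = 2), with overlapping groups.

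CDK2, the kinase of cyclins E and A, went from 137.3 and 127.0 TPM in vehicle to 69.1 and 73.0 TPM in JMC45. Both JMC45 libraries lay well below both vehicle libraries. Its change was -0.89 (SE 0.07, limma adjusted p = 6.80e-05), within 0.015 of that of CDK4, the closest pair among the 10 genes, and it was 0.45 on the rescaled values. PMEL, which overlaps CDK2 on the opposite strand, was at no more than 1.74 TPM in any library.

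CDK1, the mitotic kinase of cyclins A and B, was the kinase with the largest decrease on TPM. It measured 169.9 and 161.3 TPM in vehicle and 69.0 and 69.3 TPM in JMC45, and the JMC45 replicates were almost equal. The change was -1.25 (SE 0.06, limma adjusted p = 1.53e-05), with a 95% interval of -1.40 to -1.09 that reaches the median of all genes. On the rescaled values it was 0.09 and did not pass (adjusted p = 0.401), whereas after quantile normalization it was -0.66 and passed (adjusted p = 0.000423).

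The kinases therefore kept much of their order. Their summed TPM was 598.0 ± 3.63 in vehicle and 304.2 ± 0.276 in JMC45 (SD, n = 2). Within a library, CDK4 supplied 49.7% ± 2.01 of that sum in vehicle and 53.3% ± 1.05 in JMC45, and CDK1 supplied 27.7% ± 0.847 and 22.7% ± 0.0880. These groups did not overlap, while the CDK2 share of 22.1% ± 1.08 and 23.3% ± 0.930 did overlap. In vehicle CDK1 was above CDK2 by 1.25 ± 0.0232-fold, and in JMC45 their library values overlapped (ratio 0.974 ± 0.0351).

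**Figure D2:**
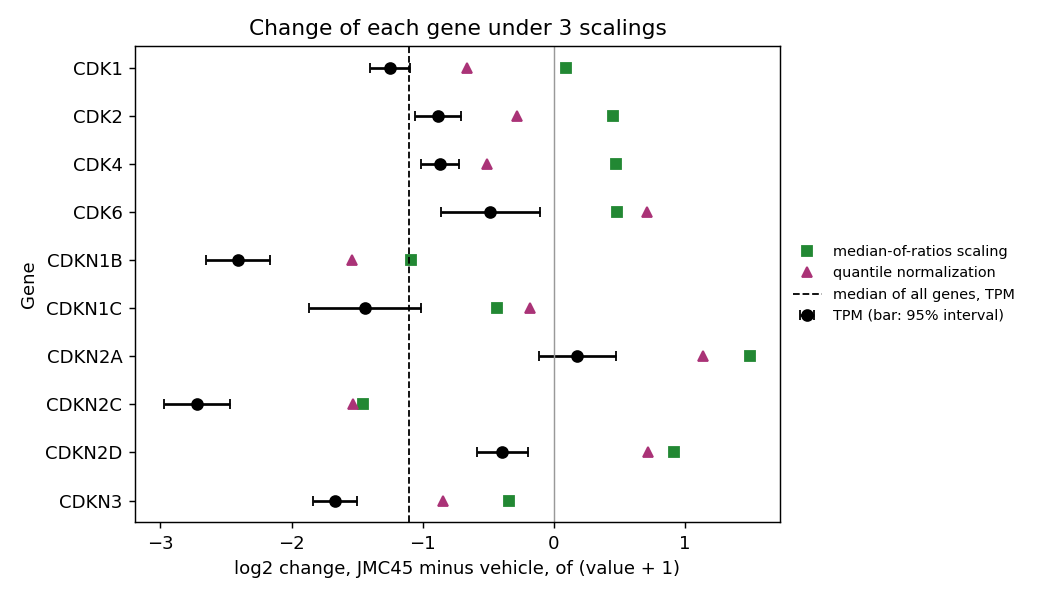
Log2 change of each of the 10 genes between JMC45 and vehicle on TPM (black, with the 95% interval from limma), on the values rescaled by median-of-ratios (green squares) and after quantile normalization (purple triangles); the dashed line is the TPM median of all genes at -1.10. CDKN1B, CDKN1C, CDKN2C and CDKN3 lie left of 0 under all 3 scalings, and CDKN2A lies to the right.

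CDKN1B encodes p27, the CIP/KIP protein that restrains cyclin E and CDK2 in resting and G1 cells. It was the most abundant inhibitor transcript in vehicle, at 118.5 and 103.0 TPM, and measured 21.2 and 18.9 TPM in JMC45. Every JMC45 value was less than any vehicle value by a wide margin, a 5.53-fold difference of means. The log2 change was -2.41 (SE 0.10, limma adjusted p = 1.12e-05), or -1.31 relative to the median of all genes, and 7.36% of tested genes had a lower change. It also fell on the rescaled values (-1.09, adjusted p = 9.12e-05) and quantile normalization (-1.54).

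CDKN1C encodes p57, the imprinted CIP/KIP family member, and was scarce. It stood at 5.51 and 6.69 TPM in vehicle and at 1.91 and 1.34 TPM in JMC45. The groups were apart, and each group's replicates were uneven for so low a level. The change was -1.44 (SE 0.17, limma adjusted p = 0.000377). It did not pass on the rescaled values (-0.43, adjusted p = 0.0662) or quantile normalization (-0.18, adjusted p = 0.397).

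The changes of the INK4 genes ran from -2.72 to 0.18. CDKN2C, which encodes p18, was at 49.6 and 48.8 TPM in vehicle and at 7.20 and 6.10 TPM in JMC45. Its vehicle replicates were nearly equal, and its JMC45 values were 7.40-fold lower on average. The change of -2.72 (SE 0.10, limma adjusted p = 1.03e-05) was the lowest of the 10 genes, and 3.39% of tested genes had a lower one. It fell on the rescaled values as well (-1.45, adjusted p = 7.17e-05).

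CDKN2D, which encodes p19 of the INK4 family, went from 31.8 and 32.9 TPM to 25.2 and 23.6 TPM. The groups did not overlap, but the decrease was small. On TPM it fell by 0.39 (SE 0.08, limma adjusted p = 0.00399), and the direction turned on the rescaled values, to 0.91 (adjusted p = 0.000312), and after quantile normalization, to 0.71.

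CDKN2A, the locus of p16 and, in another reading frame, ARF, was the only one of the 10 genes whose groups overlapped. It measured 43.5 and 39.1 TPM in vehicle and 52.1 and 42.1 TPM in JMC45. JMC45 library 1 was the highest, and JMC45 library 2 lay between the vehicle libraries. The change of 0.18 (95% interval -0.12 to 0.47) did not pass (limma adjusted p = 0.204). It passed as higher on the rescaled values (1.50, adjusted p = 6.96e-05) and quantile normalization (1.14, adjusted p = 0.000398), without the mitochondrially encoded genes (0.32, adjusted p = 0.0318) and without JMC45 replicate 2 (0.33, adjusted p = 0.0414), whereas equalizing the mitochondrially encoded share gave -0.27. Relative to the median of all genes CDKN2A stood 1.28 higher, and 93.8% of tested genes had a lower change. The gene's TPM does not separate its products. The antisense RNA CDKN2B-AS1, which overlaps it, measured 2.81 and 2.07 TPM in vehicle and 1.29 and 1.05 TPM in JMC45.

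CDKN3 encodes a phosphatase that removes the activating phosphate of CDK1 and CDK2 once cyclin is gone, and its transcript is a mitotic one. It was at 105.0 and 103.4 TPM in vehicle and at 33.2 and 31.2 TPM in JMC45. Replicates were close in both groups, and the difference of means was 3.24-fold. The change was -1.67 (SE 0.07, limma adjusted p = 1.12e-05), and -0.34 on the rescaled values (adjusted p = 0.0167). The ratio of CDKN3 to CDK1 was 0.630 ± 0.0163 in vehicle and 0.465 ± 0.0219 in JMC45 (SD, n = 2), so CDKN3 had the larger decrease in both JMC45 libraries.

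Ratios within a library are the same under any scaling by 1 factor per library, such as median-of-ratios, though not under quantile normalization, and they were taken from TPM. CDKN2A over CDKN2C was 0.878 and 0.802 in vehicle and 7.24 and 6.90 in JMC45. CDKN2A made up 17.2% ± 0.360 of the summed TPM of the 5 inhibitors in vehicle and 47.1% ± 1.92 in JMC45, CDKN2D made up 13.5% ± 1.07 and 24.6% ± 1.58, and CDKN1B made up 46.1% ± 2.07 and 20.1% ± 0.614 (SD, n = 2). CDKN2C fell back from 20.5% ± 0.881 to 6.66% ± 0.0450. The order of levels changed accordingly: in vehicle it ran CDK4, CDK1, CDK2, CDKN1B, CDKN3, CDKN2C, CDKN2A, CDKN2D, CDKN1C and CDK6, with only CDKN1B and CDKN3 overlapping, and in JMC45 it ran CDK4, CDK2, CDK1, CDKN2A, CDKN3, CDKN2D, CDKN1B, CDKN2C, CDK6 and CDKN1C, with CDK2 and CDK1, and CDK6 and CDKN1C, overlapping.

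**Figure D3:**
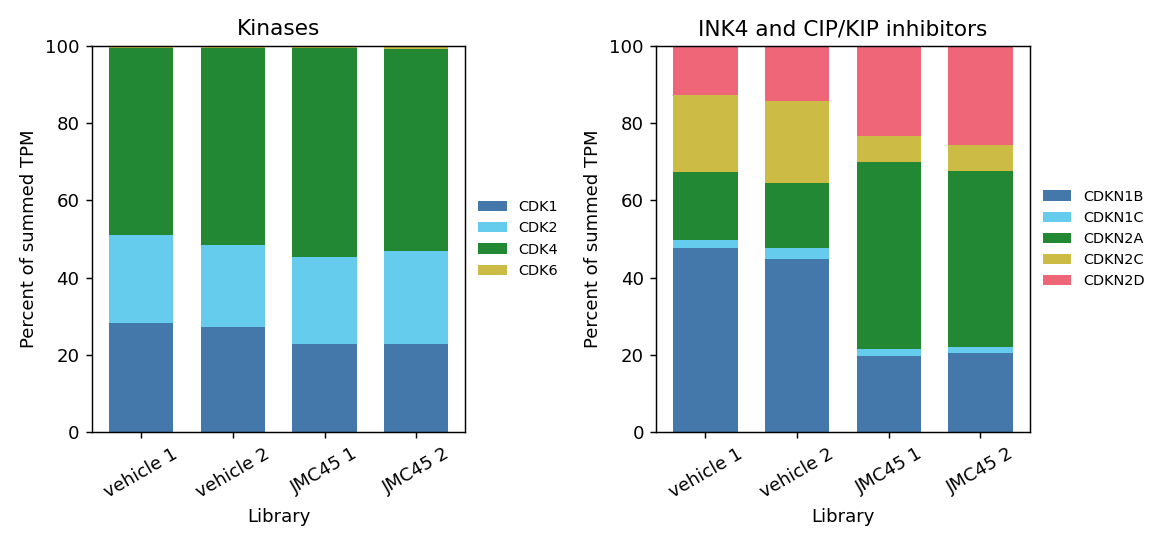
Share of the summed TPM of the 4 kinases (left) and of the 5 INK4 and CIP/KIP inhibitors (right) held by each gene, in percent, with 1 stacked bar per library. CDK1 takes 27.1% to 28.3% of the kinase bar in vehicle and 22.7% to 22.8% in JMC45, and CDKN2A takes 17.0% to 17.5% of the inhibitor bar in vehicle and 45.7% to 48.4% in JMC45.

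Set against their kinases, these 5 inhibitors shifted less in sum than one by one. The 5 inhibitors together held 239.7 ± 13.0 TPM in vehicle and 99.8 ± 11.0 TPM in JMC45, and their ratio to the 4 kinases was 0.414 and 0.387 in vehicle and 0.353 and 0.303 in JMC45 (SD, n = 2). The ratio's log2 change of -0.29 ranged from -0.40 to -0.18 when single libraries were left out. This sum leaves out CDKN1A, which rose from 20.2 TPM in both vehicle libraries to 39.9 and 34.4 TPM in JMC45. A ratio to the kinases with CDKN1A added was not tested, but adding its TPM to the inhibitor sum of each library makes the groups overlap. The lower ratio therefore holds for these 5 inhibitors only. CDKN1B per CDK2 went from 0.837 ± 0.0367 to 0.283 ± 0.0335. The INK4 sum per CDK4 and CDK6 stood at 0.409 ± 0.0227 in vehicle and 0.476 ± 0.0455 in JMC45. In all, 31 sums, ratios and shares were compared; for 29 the groups did not overlap, with p = 0.33 in a two-sided exact permutation test, the lowest reachable with 2 libraries against 2 (0.36 after Benjamini-Hochberg adjustment).

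The lists of cyclins, CDK activators, inhibitory kinases and RB and E2F genes each had a lower TPM median than the -0.88 of the kinases. The medians of the FOXO factors (-1.50), the ubiquitin ligase parts (-1.03) and all tested genes (-1.10) were also lower than that of the kinases. Of 10 cyclin partners, CCNA1 and CCND2 were at 0 in every library, 7 of the 8 tested fell, and CCNB3, named after its value was seen, did not pass (-1.04, adjusted p = 0.111). Their median was -2.41, and rescaling left 6 called lower and none higher, against 80.7% of all genes lower on TPM and 35.5% lower rescaled. CCNE2 (-3.98), CCNA2 (-3.19), CCNE1 (-2.79) and CCNB2 (-2.43) had the largest decreases on the log2(TPM + 1) scale, which understates that of CCNE1 (0.85 and 0.65 TPM in JMC45). The partner ratios moved with them: E cyclins per CDK2 went from 0.411 ± 0.0306 to 0.0360 ± 0.00299, CCNA2 per CDK2 from 0.696 ± 0.00271 to 0.130 ± 0.00704, CCNB1 and CCNB2 per CDK1 from 1.84 ± 0.0895 to 0.808 ± 0.0348, and D cyclins per CDK4 and CDK6 from 2.57 ± 0.288 to 1.25 ± 0.0405 (SD, n = 2).

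All 9 genes of CDK activation fell on TPM, with a median of -2.53, while rescaling left 5 lower and called 2 higher; of all tested genes 80.7% were lower on TPM, and 35.5% lower and 34.9% higher rescaled. CDC25C (-3.46) and CDC25A (-2.91), phosphatases that lift the inhibitory phosphates of CDKs, led them, followed by CDK7 (-2.58), the kinase of the CDK-activating complex, and CKS2 (-2.55), a small CDK-binding adaptor. The adaptor CKS1B and the kinase chaperone CDC37, named after their values were seen, kept 84.8% and 84.9% of their vehicle means and were the 2 that rose once rescaled (1.11 in each); after quantile normalization CKS1B was at -0.01 and CDC37 at 0.33. The kinases that place inhibitory phosphates on CDK1 and CDK2 fell too, WEE1 from 40.5 ± 3.10 to 4.39 ± 0.0283 TPM and PKMYT1 from 49.5 ± 3.05 to 6.49 ± 0.453 TPM (limma adjusted p = 9.82e-06 and 1.00e-05), and both also fell on the rescaled values.

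The remaining CIP/KIP gene, CDKN1A, encoding p21, went the other way. It measured 20.2 TPM in both vehicle libraries and 39.9 and 34.4 TPM in JMC45, and it rose on TPM (0.84, limma adjusted p = 0.000297) and on the rescaled values (2.14). CDKN1A per CDKN1B was 0.171 and 0.196 in vehicle and 1.88 and 1.82 in JMC45. With CDKN1A added, the 3 CIP/KIP transcripts summed to 137.1 ± 10.1 TPM in vehicle and 58.8 ± 5.89 TPM in JMC45, and per CDK2 to 1.04 ± 0.0194 and 0.830 ± 0.115 (SD, n = 2). The INK4 gene CDKN2B, near CDKN2A and similar to it in sequence, was at 1.03 and 1.26 TPM in vehicle and 0.23 and 0.29 TPM in JMC45, below the level for testing; reads shared between these genes could be assigned to either.

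Downstream of the kinases, all 13 genes of the RB pocket proteins, E2F and DP factors fell on TPM, as did 80.7% of all genes, with a median of -1.48. Rescaling left 6 lower (35.5% of all genes) and called 1 higher (34.9% of all), TFDP1, which is named after its value was seen. Quantile normalization left 4 lower (32.8% of all) and 1 higher (33.6% of all), with 8 not passing. E2F8 (-3.22), a repressor E2F, E2F6 (-2.09), E2F5 (-2.07) and the activator E2F1 (-1.97) had the largest decreases. Of 10 genes for ubiquitin ligase parts that act on CIP/KIP proteins 9 fell, near the 80.7% of all genes, with a median of -1.03 near the -1.10 of all genes; 2 were lower and 5 higher among the rescaled values (35.5% and 34.9% of all). The scaffold CUL1 (-3.18) and the substrate receptor DTL (-2.73) fell on both scales, and RBX1 (-1.50) and CUL4A (-1.23) fell on TPM but had values of -0.18 and 0.08 after scaling. The p27 receptor SKP2, named after its value was seen, went from 32.6 ± 1.28 to 21.3 ± 2.06 TPM (-0.59, and 0.71 after scaling), and SKP1 was the gene that did not pass (-0.03). All 3 FOXO genes, whose products activate CDKN1B, fell on TPM, as did 80.7% of all genes. FOXO3 (-1.89) and FOXO1 (-1.50) fell after scaling as well (35.5% of all genes), and FOXO4 (-0.71) had a value of 0.24 there. FOXO1 was low, at 2.8 and 2.63 TPM in vehicle and 0.3 and 0.33 TPM in JMC45, where the log2(TPM + 1) scale understates a change. A part of the FOXO genes in the change of CDKN1B was not tested.

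**Figure D4:**
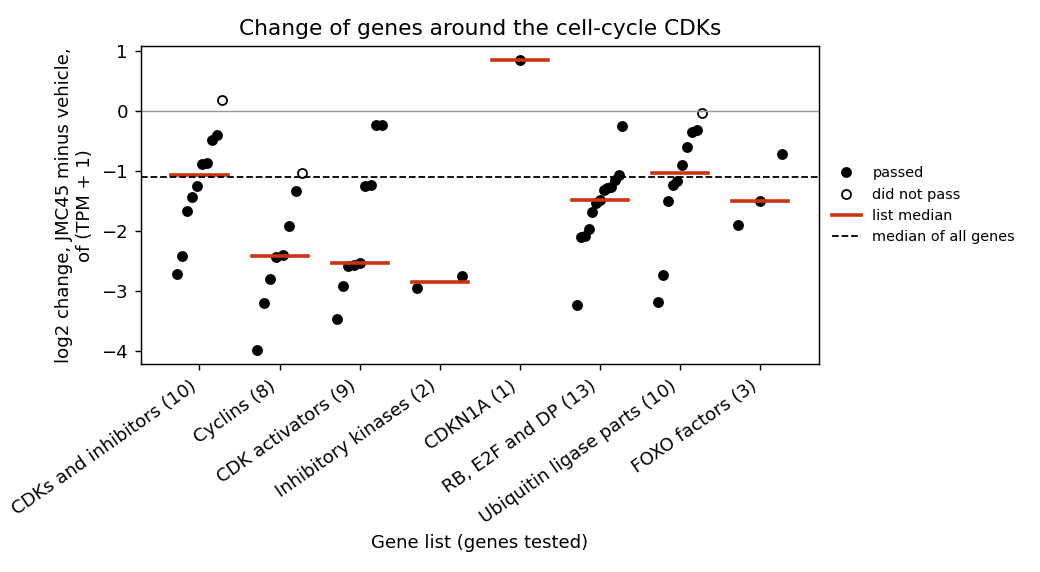
Log2 change on the log2(TPM + 1) scale of the 10 CDKs and inhibitors and of 46 tested pathway genes in 7 lists, 1 point per gene (filled, passed; open, did not pass), with list medians in red and the median of all genes, -1.10, dashed. The cyclins, CDK activators and inhibitory kinases have medians from -2.41 to -2.85, and CDKN1A at 0.84 is the point above 0 that passed.

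The lists hold 49 genes, of which 46 were tested, 43 fell and 1 rose on TPM, with a median of -1.50; rescaled, 23 were lower and 9 higher, and the median was -0.41. The shares of all tested genes were 80.7% lower and 4.25% higher on TPM, and 35.5% lower and 34.9% higher rescaled. The 4 kinases had a median of 0.46 on the rescaled values, and after quantile normalization their median of -0.40 lay close to the -0.35 of the listed genes.

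The gene models differ widely in size. In GENCODE 29 the gene span was 232 kb for CDK6, 27.5 kb for CDKN2A, 13.9 kb for CDKN2C, 7.31 kb for CDKN1B and 2.60 kb for CDKN2D. The transcript with most exons had 8 for CDK2, CDK4 and CDK6, 9 for CDK1 and CDKN3, 4 for CDKN1B, CDKN1C, CDKN2A and CDKN2C, and 3 for CDKN2D. CDKN2A and CDKN2C, with the same number of exons, had the highest and lowest changes of the 10. A part of gene span or exon number in the changes of these genes was not tested. Across 11570 protein-coding genes, which are not independent replicates, Spearman's rho of the change was 0.059 with gene span and 0.10 with exon number.

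Genes with the most similar profile were sought for the 2 extremes, by the Euclidean distance of centred log2(TPM + 1) over the 4 libraries among 8418 protein-coding genes whose TPM averaged 5 or more. For CDKN2C the nearest were TMEM70 (distance 0.024), ZNF503 (0.045) and PCNA (0.051), the replication clamp, which went from 466.7 and 472.3 to 76.4 and 68.0 TPM. For CDKN2A they were MZT2A (0.025), HDAC10 (0.038) and ETHE1 (0.040). Of the 8418 genes, 41 lay within a distance of 0.1 of CDKN2C and 20 of CDKN2A.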

How the data were processed

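Poly(A)-selected RNA of 2 JMC45 and 2 vehicle libraries was sequenced from a stranded kit, per the labels' protocols. The authors deposited TPM per Ensembl gene and library, per the file headers. Tools named in the submitters' processing notes were StringTie, HISAT2 and fastp. Build, annotation and use of strand: not given in the sources used here. Columns named CTL were assigned to the vehicle libraries by number. The table had 63291 lines, of which 50 without values were left out; 62666 of 63241 gene identifiers matched a symbol.

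Values were tested as log2(TPM + 1), which understates changes of low genes, for the 14018 genes averaging 1 TPM or more, with limma 3.58.1 in R 4.3.3 (two-sided, intensity trend, no replicate block) and Benjamini-Hochberg adjustment over all genes tested at 0.05. "Rose" and "fell" are used for genes that passed. The test was also run on simulated data with known changes. TPM keeps no depth, so no counting intervals are given. Sums, ratios and shares used an exact permutation test over libraries. Figures were made with Python 3.11.15 and matplotlib 3.10.9.

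The 10 genes, the 7 pathway lists and the tests were chosen with earlier results of these data known. All 10 genes are named; in each list up to 4 genes with the largest change past the threshold are named, and every tested gene of a list of 3 or fewer, with the 3 nearest profiles of the genes with the lowest and highest change. As 13 alternatives, each library was left out, the replicate number was added as a block, the trend was dropped, the pseudocount was set to 0.1, the filter was removed or raised to 5 TPM, and libraries were rescaled by median-of-ratios, by quantile normalization, without mitochondrially encoded genes or to an equal mitochondrially encoded total. The deviations of same-numbered libraries correlated at r = -0.047 across genes. Of the 9 luminal markers chosen, 2 are not reported here.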

Additional observations from a re-analysis of the deposited data

How the results depend on the processing

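The scaling moved the counts of genes called and turned the direction of a minority of the named genes. Of 38 named genes, median-of-ratios scaling turned 7, quantile normalization 3 and holding the mitochondrially encoded total equal 4. On TPM 596 genes were called higher and 11311 lower; median-of-ratios scaling called 4888 and 4981, quantile normalization 4716 and 4603, and equalizing the mitochondrially encoded share left 181 higher. Of the 10 CDKs and inhibitors, 9 were lower and 0 higher on TPM, against 3 and 5 after median-of-ratios scaling and 6 and 3 after quantile normalization; 1 was higher without the mitochondrially encoded genes, and between 0 and 1 higher and between 8 and 9 lower when 1 library was left out. The log2 change of the kinase sum, -0.98, became 0.38 after median-of-ratios scaling, -0.83 without the mitochondrially encoded genes and -1.43 with their total held equal, and that of the inhibitor sum, -1.26, became 0.087 after median-of-ratios scaling and -1.72 with that total held equal. The inhibitor to kinase ratio, taken without CDKN1A, is the same under each of these 3. Median-of-ratios scaling turned the direction of CDK1 (0.093), CDK2 (0.45), CDK4 (0.48), CDK6 (0.48), CDKN2D (0.91), CUL4A (0.084) and FOXO4 (0.24), quantile normalization that of CDK6 (0.71), CDKN2D (0.71) and FOXO4 (0.47), and holding the mitochondrially encoded total equal that of CDKN2A (-0.27), MZT2A (-0.26), HDAC10 (-0.22) and ETHE1 (-0.26). Median-of-ratios scaling by construction moves the median of all genes from -1.10 to -0.02. Holding the mitochondrially encoded total equal divides each library by 1 factor and moves that median to -1.47. The cause of the turns under quantile normalization was not tested. Under the other 10 alternatives, 366 of 376 values of named genes kept their direction and side of the threshold and none turned. The replicate number as a block gave 613 genes higher and 11380 lower, with 9 of the 10 CDKs and inhibitors lower, and changed no call of a named gene; nothing in the labels says that the numbers pair the libraries. With a mean TPM of at least 5 required, CDK6, CDKN1C, FOXO1 and FOXO4 gave no value. With depth unknown, the counting error of low genes such as CDK6, CDKN1C and FOXO1 cannot be given.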
